A study of Homo sapiens with 6 samples.

Results

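The genes described here were the core autophagy machinery and the cargo receptors of autophagy, 40 of the 35840 genes in the expression table, chosen by symbol for their roles, with earlier results of these data known. They were measured in Huh-7 cells, an established human hepatocellular carcinoma line. The metformin group had 3 libraries (replicates 1, 2 and 3) of cells given 20 mM metformin, a biguanide drug used against type 2 diabetes, and the control group had 3 libraries (replicates 4, 5 and 6) of cells given none. Culture lasted 48 h in both groups, and cells of both had been starved beforehand, according to the methods of the study, which also gave the dose, while the paper names another dose elsewhere. Sequencing of polyA RNA gave values as FPKM, fragments per kilobase of exon scaled to the fragments of the library. The methods speak of independent trials for the data in general, but neither they nor the labels said that the libraries of a group came from separate cultures, so the p-values measured the spread between these libraries, which may be technical. In bulk RNA, fewer cells with a transcript and less of it per cell cannot be told apart.

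Macroautophagy encloses cytoplasm in a double membrane and delivers it to the lysosome. The ULK kinase complex starts the process, the class III phosphatidylinositol 3-kinase (PI3K) marks the growing membrane with the lipid PI3P, ATG9 vesicles and ATG2 proteins supply lipid, and a pair of ubiquitin-like conjugation pathways attach ATG8 proteins to the membrane, where cargo receptors bind them. In liver cells the pathway is known for clearing mitochondria, lipid droplets and protein aggregates, and AMPK, a kinase that metformin is known to activate, phosphorylates ULK1. The values below are transcript levels and measure no protein, lipidation or flux.

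Of the 40 autophagy genes, 39 reached a mean of 1 FPKM in at least 1 group and were tested. After metformin 20 were higher and 8 were lower at an adjusted p under 0.05, and 11 did not pass (limma on log2(FPKM + 1), two-sided, Benjamini-Hochberg over 13094 genes). The 20 higher genes were 51.3% of those tested, against 28.9% of all genes tested, and the 8 lower genes were 20.5%, against 44.1% of all genes. Differentially expressed genes (DEGs) had an absolute log2 fold change above 1 in addition. ATG14, UVRAG, SQSTM1, OPTN and PINK1 were upregulated DEGs, 12.8% of those tested against 4.88% of all genes, and VMP1 and ATG16L2 were downregulated DEGs, 5.13% against 10.7% of all genes. The median log2 fold change of the 39 was 0.28, against -0.14 for all genes tested. In 21 of the 39 every metformin library lay above every control library, 53.8% against 30.7% of all genes, in 11 every metformin library lay below, 28.2% against 46.0%, and in 7 the groups overlapped. ULK2 passed the minimum only through the metformin group and ATG16L2 only through the control group, and among the 37 genes that passed it in both groups 19 were higher and 7 lower, beside 31.2% higher and 39.3% lower among all 10825 genes that did so. How many genes were called depended on the scaling between libraries. With TMM factors (trimmed mean of M values) the split was 26 higher and 5 lower among the autophagy genes and 5413 higher and 4182 lower among all genes, against 3784 higher and 5781 lower among all genes as deposited.

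**Figure D1:**
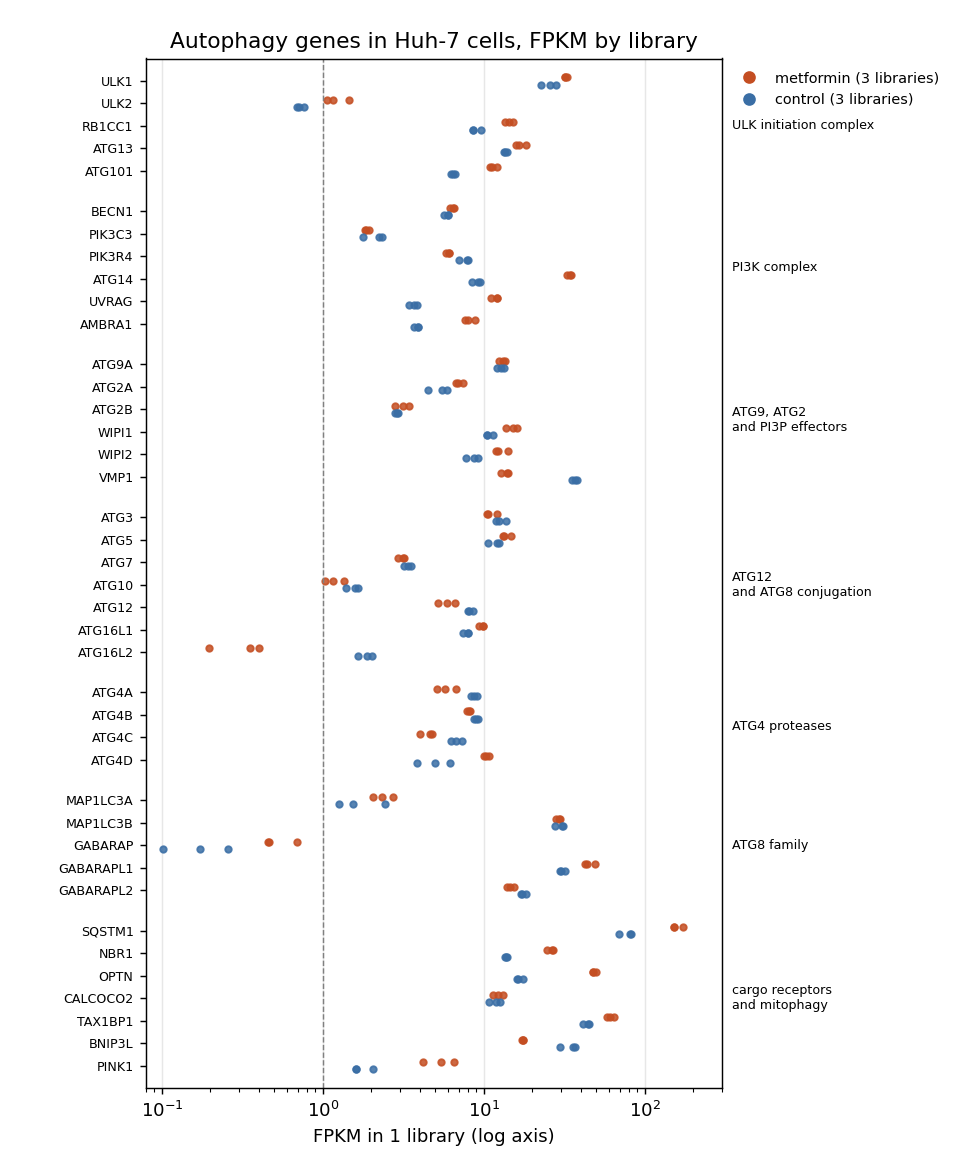
FPKM of each of the 40 autophagy genes on a log axis, 1 point per library, with the 3 metformin libraries just above the 3 control libraries of the same gene, genes grouped by role, and a dashed line at 1 FPKM. SQSTM1 stands highest in both groups, ATG14 separates the groups most among the PI3K genes, and GABARAP lies below 1 FPKM in all 6 libraries.

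The genes differed widely in level. Mean levels ran from 0.534 ± 0.133 FPKM in metformin libraries and 0.177 ± 0.0778 FPKM in control libraries for GABARAP to 159 ± 11.8 FPKM in metformin libraries and 77.4 ± 7.26 FPKM in control libraries for SQSTM1 (SD, n = 3 each). In metformin libraries 22 genes were above 10 FPKM, and in control libraries 16 were. The median coefficient of variation between libraries of a group was 5.47% with metformin and 5.64% in controls over the genes tested, and these had 29 to 22903 fragments per library. The plot of FPKM by library shows the level of every gene, and the plot of log2 fold changes shows its change.

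**Figure D2:**
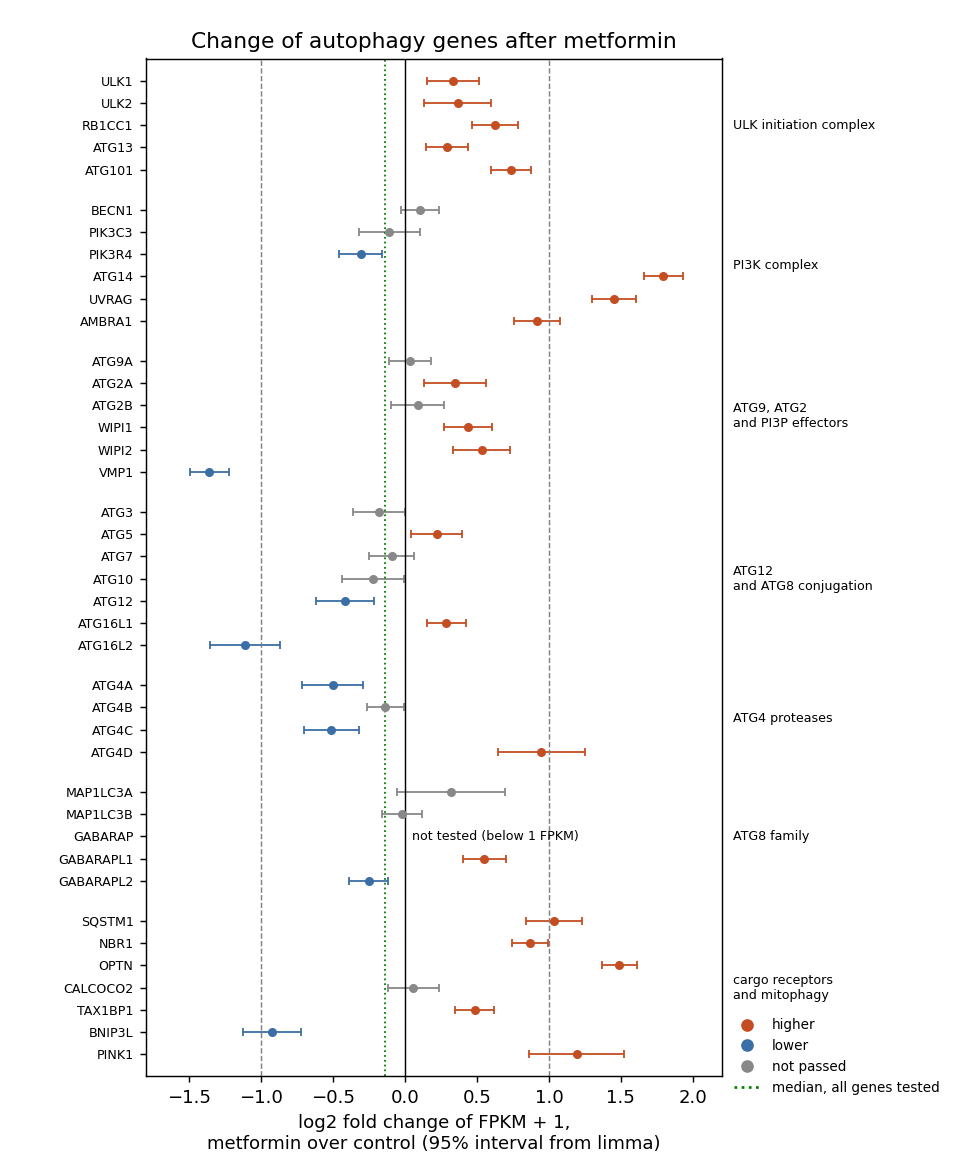
Log2 fold change of FPKM + 1, metformin over control, of each gene tested, with its 95% interval from limma, coloured by whether the gene was higher, lower or did not pass at an adjusted p of 0.05. The dashed lines mark -1 and 1, and the dotted line marks the median of all genes tested, -0.14. All 5 genes of the ULK complex lie right of 0, and VMP1 and ATG16L2 lie left of -1. ULK2 passed the minimum only through the metformin group and ATG16L2 only through the control group.

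The promoters of ATG14 and GABARAPL1, both higher after metformin, and of ATG3, which did not pass, are shown because each holds a motif of a transcription factor of stress or nutrient responses. They are RefSeq sequences (GRCh38.p14), 250 bases before to 50 bases after a gene start. Of the 40 genes 34 had a promoter in the table used, 42 promoters in all. Both strands were searched, and capitals mark the motif.
ATG14 promoter, chr14:55411781-55412080, minus strand: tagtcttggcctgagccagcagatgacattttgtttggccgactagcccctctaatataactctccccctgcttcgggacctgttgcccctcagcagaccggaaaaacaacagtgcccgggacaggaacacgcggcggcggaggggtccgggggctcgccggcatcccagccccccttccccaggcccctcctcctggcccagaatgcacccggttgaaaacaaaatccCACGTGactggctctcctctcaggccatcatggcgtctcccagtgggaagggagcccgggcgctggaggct
GABARAPL1 promoter, chr12:10212627-10212926, plus strand: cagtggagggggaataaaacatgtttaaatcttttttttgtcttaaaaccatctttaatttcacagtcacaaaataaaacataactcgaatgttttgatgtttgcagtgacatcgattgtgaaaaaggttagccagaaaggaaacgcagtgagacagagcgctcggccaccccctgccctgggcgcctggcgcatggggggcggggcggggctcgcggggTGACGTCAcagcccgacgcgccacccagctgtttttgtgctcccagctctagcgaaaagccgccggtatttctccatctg
ATG3 promoter, chr3:112561913-112562212, minus strand: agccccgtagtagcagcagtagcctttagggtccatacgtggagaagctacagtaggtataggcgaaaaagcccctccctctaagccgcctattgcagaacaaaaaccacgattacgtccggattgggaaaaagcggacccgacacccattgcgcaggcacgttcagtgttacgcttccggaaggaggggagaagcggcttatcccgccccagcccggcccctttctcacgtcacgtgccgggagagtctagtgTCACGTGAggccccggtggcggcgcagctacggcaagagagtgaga

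The capitals in the ATG14 promoter mark the E-box core CACGTG, which begins 21 bases before the start and is bound by TFEB and other basic helix-loop-helix factors. CACGTG was in 7.26% of all 35116 promoters and in those of 2 of the 34 genes, ATG14 and ATG3. The capitals in the ATG3 promoter mark the longer form TCACGTGA, which contains CACGTG and stood in 0.98% of all promoters, and the same window holds a further CACGTG in lower case. In the GABARAPL1 promoter they mark the cAMP response element TGACGTCA, which begins 30 bases before the start and was present in 1.85% of all promoters. GTAAACA, the FOXO pattern (3.42% of all promoters), was found in the promoter of CALCOCO2, which did not pass the test. TGACTCAGC (0.561%) and TTGCATCA (0.866%), the patterns of antioxidant and CEBP-ATF elements, were in none of the 42 promoters.

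All 5 genes of the ULK initiation complex, which starts the autophagosome, were higher after metformin, with a median log2 fold change of 0.37 and none past a log2 fold change of 1. Of all genes tested 28.9% were higher and 44.1% lower, which also stands beside the counts of the role groups below. Of these 5 genes ULK2 passed the minimum only through the metformin group, so passing and direction are tied for it. The largest change was that of ATG101, which stabilises ATG13 within the complex. ATG101 had 11.0, 12.1 and 11.3 FPKM in metformin libraries, against 6.67, 6.27 and 6.42 FPKM in control libraries. The groups did not overlap, and its log2 fold change was 0.74 ± 0.059 (SE) with an adjusted p of 2.92e-05 (limma). RB1CC1, also called FIP200, is the scaffold of the complex. It had 14.3, 15.2 and 13.5 FPKM with metformin, against 8.62, 8.58 and 9.65 FPKM in controls, again without overlap, with a log2 fold change of 0.62 ± 0.069 and an adjusted p of 0.000133.

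The kinases of that complex were higher too. ULK1, the main kinase, had a mean of 32.2 ± 0.525 FPKM in metformin libraries and 25.5 ± 2.71 FPKM in control libraries (SD, n = 3 each), a log2 fold change of 0.33 and an adjusted p of 0.00567 from limma. Its paralog ULK2 had 1.15, 1.45 and 1.07 FPKM with metformin, against 0.688, 0.763 and 0.709 FPKM in controls, so all 3 metformin libraries were above 1 FPKM and all 3 control libraries below it (log2 fold change 0.37, adjusted p 0.0115). Levels of ULK2 are near the pseudocount of 1, so 0.37 understates its change. A fit to fragments rebuilt from the FPKM values (limma voom) gave 0.75 for ULK2 and 0.35 for ULK1. ULK1 was the more abundant of the pair, at 28.0, 22.7 and 29.8 times ULK2 with metformin, against 37.4, 36.7 and 31.9 times in controls. ATG13, the regulatory subunit, averaged 16.9 ± 1.20 FPKM with metformin and 13.6 ± 0.280 FPKM in controls (log2 fold change 0.29, adjusted p 0.00396).

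In the PI3K complex the change was uneven. Of its 6 genes 3 were higher, 1 was lower and 2 did not pass, with a median log2 fold change of 0.51. ATG14, on chromosome 14 from 55366391 to 55411830 of GRCh38 (minus strand, GENCODE 44), directs the complex to sites where autophagosomes form and had the largest increase of the 39. It had 34.2, 32.7 and 34.6 FPKM in metformin libraries, against 8.48, 9.18 and 9.48 FPKM in control libraries. Each metformin library was far above each control library, with a ratio of means of 3.74, a log2 fold change of 1.80 ± 0.058 and an adjusted p of 1.33e-06. Part of the ATG14 exons, 20.8%, overlaps FBXO34, a gene on the opposite strand, which averaged 18.5 FPKM with metformin and 12.0 FPKM in controls (log2 fold change 0.58). Counting by strand was not given in the sources used here, so reads of such shared stretches cannot be told apart.

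UVRAG takes the place of ATG14 in the form of the complex that acts on endosomes and in autophagosome maturation. It lies on chromosome 11 from 75815210 to 76144232 (plus strand). It had 12.1, 11.1 and 12.1 FPKM with metformin, against 3.87, 3.66 and 3.44 FPKM in controls, without overlap. The ratio of means was 3.21, with a log2 fold change of 1.45 ± 0.064 and an adjusted p of 3.22e-06. AMBRA1, which binds BECN1 and links the complex to ULK1, had 8.83, 7.97 and 7.62 FPKM with metformin, against 3.71, 3.88 and 3.93 FPKM in controls (log2 fold change 0.92 ± 0.068, adjusted p 2.18e-05). Its groups stood apart too, and the 95% interval of the log2 fold change, 0.76 to 1.08, reached past 1.

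PIK3R4, the VPS15 subunit that holds the lipid kinase, had 5.82, 6.04 and 6.10 FPKM with metformin, against 7.92, 7.06 and 8.02 FPKM in controls (log2 fold change -0.31, adjusted p 0.00352). Its call was lost with TMM factors, where its log2 fold change was -0.092. BECN1, the subunit shared by both forms, averaged 6.39 ± 0.170 FPKM with metformin and 5.88 ± 0.208 FPKM in controls and did not pass, with a log2 fold change of 0.10 and a 95% interval of -0.029 to 0.24. With TMM factors, median-of-ratios factors and quantile normalization BECN1 was called higher, at log2 fold changes of 0.32, 0.31 and 0.20. Of the BECN1 exons 17.1% overlap CNTD1 or PSME3. PSME3 averaged 18.2 FPKM with metformin and 31.1 FPKM in controls (log2 fold change -0.74). Reads of the shared stretches cannot be told apart, which limits the level of BECN1 and the ratios to it below. PIK3C3, the lipid kinase VPS34 itself, averaged 1.88 ± 0.0519 FPKM with metformin and 2.12 ± 0.297 FPKM in controls and did not pass either (interval -0.32 to 0.10). The ratios of transcripts within the complex therefore differed between the groups. ATG14 was at 5.22, 5.11 and 5.57 times BECN1 in metformin libraries, against 1.41, 1.63 and 1.58 times in control libraries. UVRAG was at 1.84, 1.73 and 1.95 times BECN1 with metformin, against 0.644, 0.650 and 0.574 times in controls. UVRAG thus exceeded BECN1 in every metformin library, and BECN1 exceeded UVRAG in every control library.

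Among the ATG9, ATG2 and PI3P effector genes, 3 were higher, 1 was lower and 2 did not pass, and the gene with the lowest log2 fold change of the 39 was in this group. VMP1, a scramblase of the endoplasmic reticulum needed for autophagosomes to form, lies on chromosome 17 from 59707192 to 59842255 (plus strand). It had 14.0, 14.2 and 12.8 FPKM in metformin libraries, against 35.2, 38.0 and 36.7 FPKM in control libraries. All metformin libraries were far below all controls, which were 2.68 times as high on average, and the log2 fold change was -1.36 ± 0.059 with an adjusted p of 3.04e-06. Its exons overlap MIR21 and PTRH2 over 2.01% of their length, and PTRH2 averaged 6.28 FPKM with metformin and 6.49 FPKM in controls.

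The PI3P readers WIPI1 and WIPI2 were both higher. WIPI2, which recruits ATG16L1 to the membrane, had 12.0, 12.3 and 14.1 FPKM with metformin, against 9.21, 8.66 and 7.75 FPKM in controls (log2 fold change 0.53, adjusted p 0.000866). WIPI1 had 16.1, 15.2 and 13.7 FPKM with metformin, against 10.5, 11.4 and 10.5 FPKM in controls (log2 fold change 0.44, adjusted p 0.000954). Neither gene had overlapping groups. ATG2A, a lipid transfer protein between the endoplasmic reticulum and the growing membrane, had 6.94, 7.38 and 6.70 FPKM with metformin, against 5.94, 5.48 and 4.52 FPKM in controls (log2 fold change 0.35, adjusted p 0.0108). Its paralog ATG2B did not pass, at 3.13 ± 0.325 FPKM with metformin and 2.88 ± 0.0705 FPKM in controls. ATG9A, the membrane protein of the seed vesicles, did not pass either, at 13.1 ± 0.561 FPKM with metformin and 12.8 ± 0.715 FPKM in controls (95% interval of the log2 fold change -0.11 to 0.18). With TMM factors both were called higher, ATG2B at a log2 fold change of 0.27 and ATG9A at 0.27. Other genes overlap 38.8% of the exons of ATG9A and 28.1% of those of WIPI1, where the overlapping gene ARSG averaged 0.555 FPKM with metformin and 0.588 FPKM in controls.

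The 7 conjugation genes, which attach ATG12 to ATG5 and ATG8 proteins to lipid, were split, with 2 higher, 2 lower and 3 that did not pass, and their median log2 fold change was -0.18. ATG16L2, a paralog of the scaffold ATG16L1, showed the largest decrease by ratio and passed the minimum only through the control group. It lies on chromosome 11 from 72814406 to 72843674 (plus strand) and had 0.402, 0.352 and 0.195 FPKM in metformin libraries, from 60, 56 and 29 fragments, against 1.88, 2.01 and 1.65 FPKM in control libraries, from 283, 309 and 244 fragments. Control libraries were 5.84 times as high on average, every metformin library was below every control, and the adjusted p was 6.20e-05. Because its levels are near the pseudocount of 1, the log2 fold change of -1.11 on the log2(FPKM + 1) scale understates that ratio, and a fit to the rebuilt fragments (limma voom) gave -2.59.

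ATG16L1, the paralog that forms a complex with ATG12 and ATG5, moved the other way. It had 9.82, 9.95 and 9.30 FPKM with metformin, against 7.94, 7.41 and 7.98 FPKM in controls (log2 fold change 0.28, adjusted p 0.00294). ATG16L1 was at 24.4, 28.3 and 47.7 times ATG16L2 with metformin, against 4.21, 3.68 and 4.85 times in controls. ATG12, the ubiquitin-like protein joined to ATG5, had 5.19, 6.67 and 5.92 FPKM with metformin, against 8.60, 7.95 and 8.14 FPKM in controls (log2 fold change -0.42, adjusted p 0.00318). With TMM factors ATG12 did not pass, at a log2 fold change of -0.20. ATG5 had 13.3, 13.3 and 14.7 FPKM with metformin, against 10.6, 12.4 and 12.1 FPKM in controls, and passed by little (log2 fold change 0.22, adjusted p 0.0307). The ATG5 call was lost without metformin replicate 2 or 3, where its log2 fold change was 0.24 and 0.17, without control replicate 4, at 0.16, and with no filter on low values.

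The enzymes of the conjugation pathways did not pass. ATG7, the activating enzyme of both, averaged 3.09 ± 0.156 FPKM with metformin and 3.37 ± 0.153 FPKM in controls (95% interval of the log2 fold change -0.25 to 0.063). ATG3, which carries ATG8 proteins to lipid, averaged 11.1 ± 0.930 FPKM with metformin and 12.7 ± 0.883 FPKM in controls (adjusted p 0.0641). ATG10, which carries ATG12 to ATG5, averaged 1.18 ± 0.158 FPKM with metformin and 1.54 ± 0.140 FPKM in controls (adjusted p 0.0618). The sign for all 3 enzymes turned under at least 1 other scaling. ATG3 was called lower, however, with voom and without metformin replicate 2. ATG10 was called lower with voom, among protein-coding genes only and without metformin replicate 1.

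The ATG4 proteases cut ATG8 proteins before conjugation and release them from lipid afterwards. Of the 4, 1 was higher, 2 were lower and 1 did not pass. ATG4D had 10.4, 10.1 and 10.7 FPKM in metformin libraries, against 4.96, 6.13 and 3.86 FPKM in control libraries, where the spread was the wider (log2 fold change 0.95 ± 0.13, adjusted p 0.000411). ATG4A had 5.76, 5.14 and 6.74 FPKM with metformin, against 9.07, 8.39 and 8.66 FPKM in controls (log2 fold change -0.50, adjusted p 0.00162). ATG4C had 4.03, 4.75 and 4.62 FPKM with metformin, against 6.77, 6.27 and 7.37 FPKM in controls (log2 fold change -0.51, adjusted p 0.000859). None of these 3 had overlapping groups. ATG4B, the member of the family best known for cutting LC3, averaged 8.07 ± 0.202 FPKM with metformin and 8.98 ± 0.283 FPKM in controls and did not pass (adjusted p 0.0507). ATG4B was at 0.793, 0.779 and 0.757 times ATG4D with metformin, against 1.87, 1.46 and 2.26 times in controls.

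In the ATG8 family, whose lipid-bound proteins coat the autophagosome, 1 of the 4 genes tested was higher, 1 was lower and 2 did not pass. GABARAPL1, the ATG8 gene with the highest deposited FPKM in metformin libraries, had 42.9, 44.0 and 48.9 FPKM there, against 31.9, 30.2 and 29.6 FPKM in control libraries. The groups did not overlap (log2 fold change 0.55 ± 0.064, adjusted p 0.000172). GABARAPL2 had 14.0, 14.5 and 15.4 FPKM with metformin, against 17.0, 17.4 and 18.4 FPKM in controls (log2 fold change -0.25, adjusted p 0.00540), and this call was lost with TMM factors, at -0.018. MAP1LC3B, the gene of the LC3B protein used as a marker of autophagosomes, had 28.1, 29.9 and 29.6 FPKM with metformin, against 27.7, 30.6 and 30.9 FPKM in controls. These groups overlapped, and the log2 fold change of -0.023 did not pass (95% interval -0.16 to 0.11), but with TMM factors it was 0.22 and passed.

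MAP1LC3A, a further LC3 gene, averaged 2.37 ± 0.339 FPKM with metformin and 1.73 ± 0.608 FPKM in controls and did not pass (adjusted p 0.106), but was called higher with TMM factors, at a log2 fold change of 0.49. GABARAP stayed below 1 FPKM in every library and was not tested, with 0.689, 0.454 and 0.461 FPKM with metformin, from 27, 19 and 18 fragments, against 0.101, 0.173 and 0.257 FPKM in controls, from 4, 7 and 10 fragments. In the annotation used 48.2% of the GABARAP exons overlap other genes, so its level in this table is uncertain. The fit to rebuilt fragments, which had no FPKM minimum, gave a log2 fold change of 1.59 and an adjusted p of 0.00379 (limma voom). The near copies MAP1LC3B2, at 0.683 FPKM with metformin and 0.613 FPKM in controls, and GABARAPL3, at 0.00975 FPKM with metformin and listed at 0 in controls, were low.

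Summed over the 5 ATG8 genes, the libraries had 88.0, 90.9 and 97.0 FPKM with metformin, against 78.3, 80.7 and 80.4 FPKM in controls. GABARAPL1 made up 48.7%, 48.4% and 50.4% of that sum with metformin, against 40.8%, 37.4% and 36.8% in controls. It was above MAP1LC3B in all 3 metformin libraries, while in controls MAP1LC3B was the higher in replicates 5 and 6. The share of MAP1LC3B was 32.0%, 32.9% and 30.5% with metformin, against 35.4%, 37.9% and 38.4% in controls. GABARAPL2 contributed 15.9%, 16.0% and 15.8% with metformin, against 21.8%, 21.5% and 22.9% in controls. Shares within a library do not depend on a scaling factor, and for these 3 genes the groups did not overlap. The shares of MAP1LC3A (2.58% with metformin, 2.17% in controls) and GABARAP (0.585% with metformin, 0.221% in controls) were small. Because the level of GABARAP is uncertain, as said above, the sums and shares hold only for the values as deposited.

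**Figure D3:**
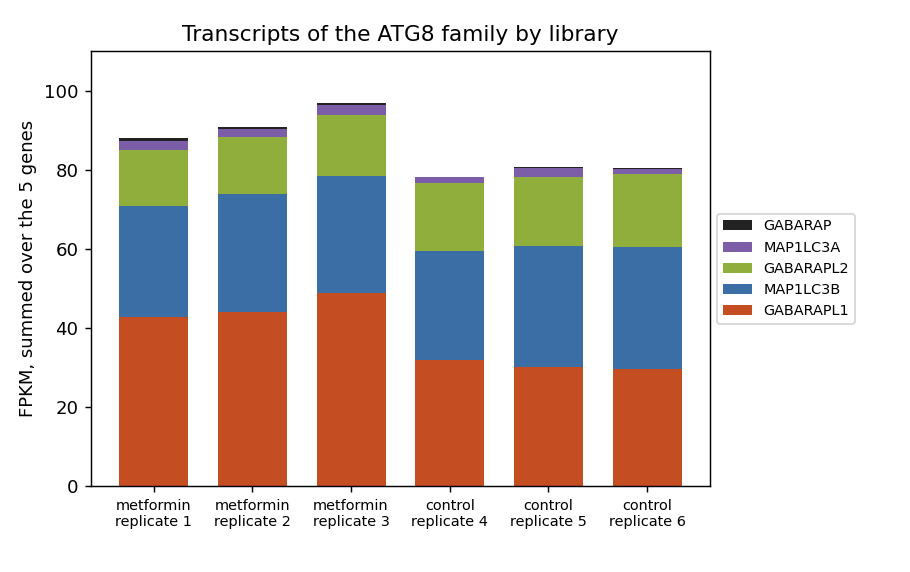
FPKM of the 5 ATG8 genes stacked for each library, the 3 metformin libraries on the left and the 3 control libraries on the right, with the axis starting at 0. The metformin stacks reach 88.0 to 97.0 FPKM and the control stacks 78.3 to 80.7 FPKM, and the GABARAPL1 segment at the bottom is the one that differs most. The level of GABARAP, which is part of each stack, is uncertain.

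Of the 7 role groups, the cargo receptors and mitophagy genes had the highest median log2 fold change, 0.87, with 5 of 7 higher, 1 lower and 1 that did not pass. The 15 other autophagy receptors tested, described further below, had a median of -0.0052, with 7 higher, 4 lower and 4 that did not pass. The high median was thus that of the 7 genes chosen, not of autophagy receptors as a class. SQSTM1 encodes p62, the receptor for ubiquitinated aggregates, and lies on chromosome 5 from 179806398 to 179838078 (plus strand). It had 173, 152 and 152 FPKM in metformin libraries, against 81.3, 81.8 and 69.0 FPKM in control libraries. Its groups were far apart, with a ratio of means of 2.06, a log2 fold change of 1.03 ± 0.083 and an adjusted p of 3.05e-05. It was a DEG by a narrow margin, since without metformin replicate 1 or control replicate 6 its log2 fold change was below 1, and over the single libraries left out it ran between 0.95 and 1.08. Of its exons 22.4% overlap MGAT4B (log2 fold change 0.64) and MRNIP (log2 fold change -1.25), which changed in opposite directions.

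OPTN, a receptor for ubiquitinated mitochondria and bacteria, lies on chromosome 10 from 13099449 to 13138308 (plus strand). It had 47.7, 47.6 and 50.1 FPKM with metformin, against 17.4, 16.3 and 16.2 FPKM in controls. The libraries of each group lay close together, and the ratio of means was 2.92, with a log2 fold change of 1.49 ± 0.052 and an adjusted p of 1.79e-06. CALCOCO2, or NDP52, a receptor with overlapping roles, did not pass, at 12.3 ± 0.847 FPKM with metformin and 11.7 ± 0.872 FPKM in controls (95% interval of the log2 fold change -0.12 to 0.23), but was called higher with TMM factors, at 0.29. OPTN was at 3.91, 3.63 and 4.38 times CALCOCO2 with metformin, against 1.61, 1.30 and 1.36 times in controls.

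NBR1, which acts with p62 in aggregate clearance, had 26.6, 26.8 and 24.6 FPKM with metformin, against 13.8, 13.5 and 14.0 FPKM in controls (log2 fold change 0.87 ± 0.054, adjusted p 9.81e-06). TAX1BP1, a ubiquitin-binding receptor that works with p62 and NBR1, had 58.5, 61.1 and 64.7 FPKM with metformin, against 44.9, 41.3 and 44.7 FPKM in controls (log2 fold change 0.49, adjusted p 0.000202). Both were without overlap between the groups. The ratio of SQSTM1 to NBR1, by contrast, was 6.13 ± 0.412 with metformin and 5.63 ± 0.602 in controls (SD, n = 3 each), and its values overlapped between groups.

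The pair of mitophagy genes moved in opposite directions. PINK1, the kinase that marks damaged mitochondria for Parkin and the receptors, lies on chromosome 1 from 20633458 to 20651511 (plus strand). It had 4.17, 5.40 and 6.50 FPKM with metformin, against 2.05, 1.61 and 1.60 FPKM in controls, so that the groups did not overlap although the metformin libraries were spread widely. The ratio of means was 3.05, with a log2 fold change of 1.19 ± 0.14 and an adjusted p of 0.000190. Of its exons 41.7% overlap PINK1-AS or MIR6084, and PINK1-AS was at 0.391 FPKM with metformin and 0.615 FPKM in controls. BNIP3L, also called NIX, a receptor in the outer mitochondrial membrane, had 17.4, 17.7 and 17.4 FPKM with metformin, against 29.6, 36.0 and 37.1 FPKM in controls (log2 fold change -0.92 ± 0.086, adjusted p 5.90e-05). Its metformin libraries were nearly equal and all below the controls. BNIP3, its closest relative and a receptor of the same kind, averaged 22.1 FPKM with metformin and 27.2 FPKM in controls and did not pass (adjusted p 0.0590), and the pseudogene BNIP3P1 was at 0.163 FPKM with metformin and 0.0845 FPKM in controls.

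Other genes of the pathway, 55 in 4 lists, were set beside these 40. Of them 50 were tested, with 25 higher (50%, against 28.9% of all genes tested), 14 lower (28%, against 44.1%) and 11 that did not pass. Their median log2 fold change was 0.17, against -0.14 over all genes. TFEB and C9orf72 passed the minimum of 1 FPKM only through the metformin group and ZKSCAN3 only through the control group. The counts of 25 higher and 14 lower include these genes, for which passing the minimum and the direction are tied. Of the 8 transcription factors known to act on autophagy genes 7 were higher, against 28.9% of all genes tested, and 1 was lower, against 44.1%. The 7 include TFEB and the lower gene was ZKSCAN3, so the tie to the minimum holds for these counts too. DDIT3, or CHOP, a factor of the stress response, averaged 40.5 FPKM with metformin and 9.50 FPKM in controls (log2 fold change 1.99, adjusted p 1.57e-05), and 39.6% of its exons overlap other genes, MARS1 among them. TFEB, a regulator of lysosomal and autophagy genes, averaged 2.98 FPKM with metformin and 0.995 FPKM in controls (log2 fold change 1.01, adjusted p 0.000162). ZKSCAN3, known as a repressor of autophagy genes, averaged 0.239 FPKM with metformin and 1.35 FPKM in controls (log2 fold change -0.93, adjusted p 0.000113). Both TFEB and ZKSCAN3 are near the pseudocount of 1, so these log2 fold changes understate the ratios. The voom fit gave 1.61 for TFEB and -2.53 for ZKSCAN3. FOXO3, a forkhead factor, averaged 18.9 FPKM with metformin and 9.81 FPKM in controls (log2 fold change 0.88, adjusted p 3.24e-05).

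Of the other machinery genes, 14 of 17 were tested, with 7 higher, 5 lower and 2 that did not pass. TP53INP1 and TP53INP2, which bind ATG8 proteins, were both lower, with log2 fold changes of -1.03 (adjusted p 0.000374) and -0.78 (adjusted p 0.000239). TMEM41B, a scramblase that works with VMP1, averaged 9.03 FPKM with metformin and 14.2 FPKM in controls (log2 fold change -0.60, adjusted p 0.00119). ULK3, a kinase related to ULK1, averaged 13.2 FPKM with metformin and 7.34 FPKM in controls (log2 fold change 0.77, adjusted p 7.87e-05).

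Of 17 other receptors 15 were tested, with 7 higher, 4 lower and 4 not past the threshold. The median log2 fold change of these 15 was -0.0052. FUNDC1, a mitophagy receptor as BNIP3L is, averaged 9.35 FPKM with metformin and 15.7 FPKM in controls (log2 fold change -0.70, adjusted p 0.000241). STBD1, a glycogen receptor of which 88.5% of the exons overlap the readthrough gene FAM47E-STBD1, had a log2 fold change of 0.64, CALCOCO1 one of -0.57 and TEX264, a receptor for the endoplasmic reticulum, one of 0.51, each with an adjusted p between 0.000549 and 0.00109. The 13 genes of fusion with the lysosome were divided, with 4 higher, 4 lower and 5 that did not pass. VPS11, a subunit of the HOPS tethering complex, averaged 13.0 FPKM with metformin and 5.53 FPKM in controls (log2 fold change 1.10, adjusted p 6.39e-06). VPS33A of the same complex was lower (log2 fold change -0.40), as was the tether TECPR1 (-0.42), and RAB7A, the small GTPase of late endosomes, was higher (0.29).

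The calls among the autophagy genes shifted with the scaling, as did those among all genes, which the plot of counts by setting shows. With TMM factors, median-of-ratios factors and quantile normalization the median over all tested genes moved up by 0.22, 0.21 and 0.13 on the log2 scale. ATG14, UVRAG, OPTN, PINK1 and VMP1 passed the DEG threshold in all 14 alternative settings. AMBRA1 and ATG4D, both near a log2 fold change of 1, were past it as well in 6 of the 8 settings with all libraries, ATG4D also without control replicate 5, and BNIP3L was past -1 without control replicate 4. Of the 20 higher genes 19 kept their call in all 14 settings, the exception being ATG5. Of the 8 lower genes VMP1, ATG16L2, BNIP3L, ATG4A and ATG4C kept theirs, while PIK3R4, ATG12 and GABARAPL2 did not.

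**Figure D4:**
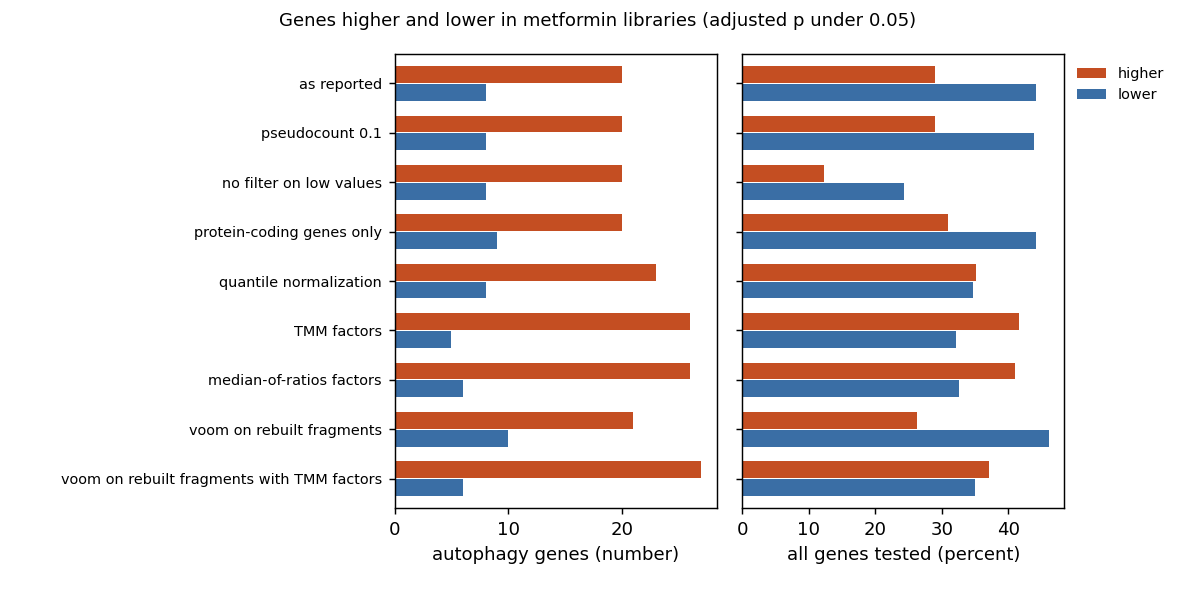
Number of autophagy genes, on the left, and percentage of all genes tested, on the right, that were higher or lower in metformin libraries at an adjusted p under 0.05, for the reported fit at the top and 8 other settings below it, both axes starting at 0. More autophagy genes were higher than lower in each of these settings (20 and 8 as reported, 26 and 5 with TMM factors), whereas among all genes the larger side changed with the scaling.

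The libraries held 17192221 to 18464783 fragments each. All 8 hepatocyte markers were present, but 6 were lower after metformin, of which AFP (log2 fold change -2.17), TTR (-2.20), APOB (-1.84), TF (-1.69) and APOA1 (-1.55) were DEGs and ALB (-0.68) was not, while HNF4A (-0.11) and SERPINA1 (0.21) did not pass. Summed over the 8, they had 975 to 1173 FPKM with metformin and 2116 to 2248 FPKM in controls, and the part of this difference in the results above was not tested. Of the leukocyte markers reported here, PTPRC and CD3E were at most 0.0411 FPKM in any library and CD68 was listed at 0, while CD14, which hepatocytes also express, was at 5.79 to 10.1 FPKM with metformin and 22.5 to 34.6 FPKM in controls. The endothelial markers PECAM1, VWF and CDH5 were at most 0.444 FPKM, and COL1A1 was at 0.730 to 0.871 FPKM with metformin and 1.79 to 2.03 FPKM in controls.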

How the data were processed

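Gene-level FPKM values were deposited by the authors for polyA RNA libraries of Huh-7 cells, 3 with metformin and 3 controls. The study names Cufflinks 2.1.1 and GRCh38, and whether Cufflinks made these values was not tested. The aligner and the use of strand were not given in the sources used here. Ensembl IDs were named with GENCODE 44, in which 35450 of 35840 were found. Whole fragments per gene could be rebuilt from the FPKM values of 31776 of the 31777 genes above 0 (tolerance 1e-08). Libraries of 1 group differed by more than sampling noise (chi-square per degree of freedom 4.28 to 13.9). This does not show that they came from separate cultures. Each library was counted as 1 sample.

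Genes whose mean reached 1 FPKM in the metformin or the control group entered limma 3.58.1 (R 4.3.3), run on log2(FPKM + 1) with a trend in the empirical Bayes step, a scale that understates the change of low genes. Calls were made at an adjusted p of 0.05 (Benjamini-Hochberg), and DEGs had an absolute log2 fold change above 1 too, after the study, whose own test needs the reads. The fit was also run on simulated data, in which a small set of genes changed, equally many up and down. That setting cannot show how the fit behaves where many genes change or the scaling differs between groups. Values in each library are given for every DEG and for up to 3 further genes per role group with the largest absolute change among those past the threshold, and means for up to 4 genes per further list. The genes and lists were chosen with earlier results of these data known. Alternatives were a pseudocount of 0.1, no filter, protein-coding genes only, quantile normalization, TMM and median-of-ratios factors, voom on rebuilt fragments (at least 10 in 3 libraries) with and without TMM factors, each library left out, and, added after seeing the data, the genes passing the minimum in both groups.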

Additional observations from a re-analysis of the deposited data

How the results depend on the processing

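No paired analysis was possible because the groups share no replicate number (1 to 3 with metformin, 4 to 6 in controls). Counts of autophagy genes depended on the scaling, and those of upregulated DEGs also on the pseudocount and the kind of fit. With TMM factors 5 were lower, and with voom without factors 10 were. Upregulated DEGs numbered 8 with TMM or median-of-ratios factors and 11 with voom and TMM factors. Without such factors they numbered 8 with voom and 7 with a pseudocount of 0.1. Quantile normalization left 1 downregulated DEG, as ATG16L2 had a log2 fold change of -0.72 there. Leaving out single libraries gave 19 to 21 higher and 8 to 9 lower, with 4 to 6 upregulated and 2 to 3 downregulated DEGs. Of the 55 other autophagy genes 7 were lower with TMM factors, 7 with median-of-ratios factors and 8 with voom and TMM factors, against 14 as reported. Higher were 34, 34 and 36 of them, against 25. Among all genes tested 4182 of 13010, 4242 of 13012 and 5474 of 15675 were lower in these settings, against 5781 of 13094. Over all genes, upregulated DEGs numbered 1079 with TMM factors, 1058 with median-of-ratios factors, 998 with a pseudocount of 0.1, 1165 with voom and 1828 with voom and TMM factors, against 639 as reported. Downregulated DEGs numbered 933 among protein-coding genes, 924 with quantile normalization, 2422 with a pseudocount of 0.1, 3617 with voom and 2801 with voom and TMM factors, against 1401, and 5807 genes were higher with voom and TMM factors.

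Small changes turned sign with TMM factors, median-of-ratios factors and voom with TMM factors: ATG3 to 0.047, 0.039 and 0.052, ATG4B to 0.086, 0.078 and 0.095, ATG7 to 0.096, 0.090 and 0.13, PIK3C3 to 0.057, 0.051 and 0.089 and MAP1LC3B to 0.22, 0.21 and 0.23. With quantile normalization ATG10 was at 0.099, ATG7 at 0.13 and PIK3C3 at 0.17. Over the single libraries left out MAP1LC3B ran from -0.072 to 0.0047 and ATG9A from -0.0057 to 0.069. The TMM factors, by which FPKM were divided, were 0.905 to 0.931 in metformin libraries and 1.08 to 1.10 in control libraries. Dividing by them raises metformin values and lowers control values. Why the factors differed between the groups was not tested. A pseudocount of 0.1 changed no higher or lower call among the autophagy genes, but brought AMBRA1 and ATG4D past the DEG threshold. Depth limits ATG16L2 and GABARAP, which had at most 60 fragments in each metformin library.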
